A study of Homo sapiens with 4 samples.

Results

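The mitotic kinesins are microtubule motor proteins that build and reshape the spindle, move chromosomes and complete cell division. The 10 genes KIF11, KIF14, KIF18A, KIF18B, KIF20A, KIF20B, KIF23, KIF2C, KIF4A and KIFC1 were chosen by name, and all 10 were found by symbol among 62649 gene identifiers. Their transcripts were measured by polyA RNA-seq in A375, a human melanoma cell line with an activating BRAF mutation. The control group was the parental line (2 libraries). The other group (2 libraries) was the line made resistant to vemurafenib, an inhibitor of mutant BRAF, by weekly increases of the drug from 0.1 to 6.4 µM. Both were grown in RPMI-1640 medium with serum. Whether the resistant cells were harvested in vemurafenib, or descend from a single clone, is not given in the labels. The extraction text speaks of a harvest following drug exposure, but no sample title names sorafenib or pioglitazone, the other drugs of the series. The library numbers in the names of the 2 resistant count files differ from those in the labels, and the files were assigned by the deposit's own record, so the identity of the resistant libraries rests on that record. Replicates are called biological, yet no label ties them to different cultures. The p-values therefore reflect only variation among these 4 libraries, part of which could be technical.

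Kinesins walk along microtubules by hydrolysing ATP, and each mitotic member does a separate job. Some push or pull the spindle poles, some shorten microtubule ends, and others gather at the spindle midzone where the dividing cell is cut. Most of these genes are transcribed late in the cell cycle, in the G2 phase and mitosis, and are held back in resting cells. Their promoters are known for a pair of elements. The first is the CCAAT box, which the factor NF-Y binds. The second is the cell cycle genes homology region, abbreviated CHR, which is bound by complexes built on the MuvB core.

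The promoters of 6 members are shown because they place these elements beside the genes whose transcripts are described next. Each run covers 100 bases before the RefSeq start site and the first 30 after it (GRCh38.p14), 5′ to 3′ on the gene's strand. Capitals mark matches to the CHR letters (TTTGAA, its reverse complement TTCAAA, or the palindrome TTTAAA) and to the CCAAT box (CCAAT or its reverse complement ATTGG). KIF4A lies at chrX:70290004-70290133 (plus strand), KIF11 at chr10:92593030-92593159 (plus strand) and KIF20A at chr5:138179012-138179141 (plus strand). The windows of KIF11 and KIF20A lie inside the counted genes, which begin further upstream, at 92574105 and 138178719. Their RefSeq starts are therefore not the starts of the gene models that were counted. KIF14 lies at chr1:200620722-200620851 (minus strand), KIF2C at chr1:44739737-44739866 (plus strand) and KIF20B at chr10:89701490-89701619 (plus strand).
KIF4A: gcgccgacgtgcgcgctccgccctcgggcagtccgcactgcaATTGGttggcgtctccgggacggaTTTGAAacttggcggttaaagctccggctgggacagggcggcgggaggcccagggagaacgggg
KIF11: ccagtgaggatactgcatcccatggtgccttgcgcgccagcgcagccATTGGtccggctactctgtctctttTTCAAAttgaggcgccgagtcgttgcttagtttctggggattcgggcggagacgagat
KIF20A: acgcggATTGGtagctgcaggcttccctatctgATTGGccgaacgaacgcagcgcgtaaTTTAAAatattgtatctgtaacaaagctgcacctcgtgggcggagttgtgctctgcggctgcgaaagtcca
KIF14: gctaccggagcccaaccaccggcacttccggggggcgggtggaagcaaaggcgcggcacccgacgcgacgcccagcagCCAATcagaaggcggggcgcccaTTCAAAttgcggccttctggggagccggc
KIF2C: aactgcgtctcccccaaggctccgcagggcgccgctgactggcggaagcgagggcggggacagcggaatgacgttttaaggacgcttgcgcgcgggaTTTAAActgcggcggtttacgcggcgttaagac
KIF20B: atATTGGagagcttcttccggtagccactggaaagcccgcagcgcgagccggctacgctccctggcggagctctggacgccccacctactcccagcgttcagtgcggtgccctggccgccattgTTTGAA

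KIF4A, KIF11, KIF20A and KIF14 hold a CCAAT box and, between 23 and 26 bases further on, a CHR, counted from first base to first base. KIF2C was the member without a CCAAT match. KIF20B had its nearest CCAAT match 122 bases before the CHR. In the full window of 250 bases before and 50 after the start, searched on both strands, all 10 members held a CHR match, against 24.0% of 35116 promoters in the RefSeq table. A CCAAT match stood in 9 of 10 members and in 34.6% of all promoters. Both stood in 9 of 10 members, which have 1 promoter each, against 9.27% of all promoters (11.2% of genes). Of the promoters of transport kinesins and their light chains 1 of 29 held both (1 of 21 genes). The share with the pair varied among other lists of the late cell cycle. The pair stood in 12 of 21 promoters of mitotic entry genes (10 of 14 genes). For kinesin partners it was 13 of 27 (12 of 19 genes), and for kinetochore and checkpoint genes 9 of 26 (8 of 24 genes). For late-cycle transcription factors it was 2 of 23 (2 of 13 genes), and for the other mitotic kinesins 1 of 8 (1 of 7 genes). List genes without a promoter in the RefSeq table are not counted. Of the 10 CHR-holding members, 8 had TTTGAA in either orientation, and KIF2C and KIF20A had TTTAAA alone. In 6 members a CCAAT match lay 23 to 35 bases before a CHR, with the remaining pairs 9 bases apart in KIF23, 50 in KIFC1 and 122 in KIF20B. With the window ended at the start site, 6 of 10 members had a CHR match, against 21.9% of all promoters. The CHR of KIF18B, KIFC1 and KIF20B began at base 3, 5 and 25 of the transcript, and that of KIF2C spanned the start. KIF14 had one at base 2 and a further TTTAAA 198 bases upstream. A letter match is no measure of binding, and the members were chosen with their joint pattern in these libraries known.

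**Figure D1:**
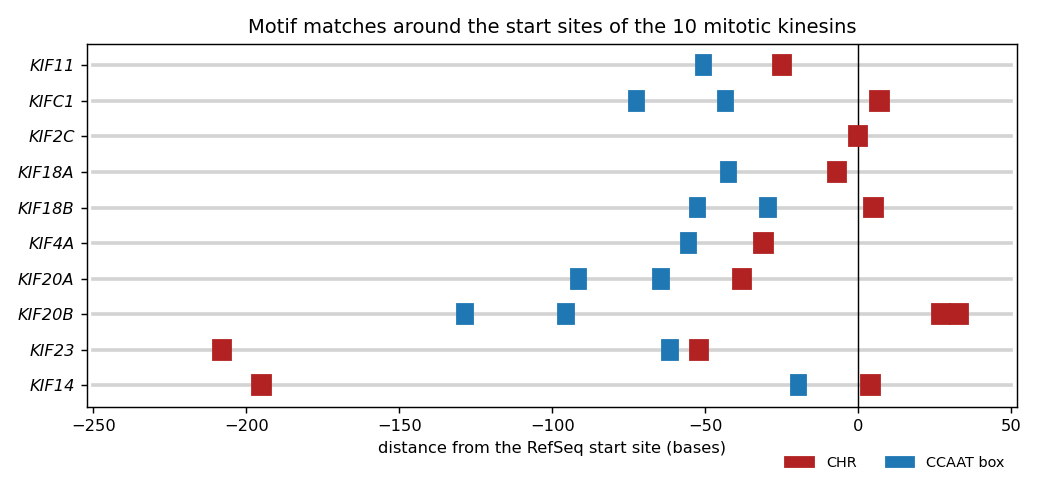
Positions of CHR (red) and CCAAT (blue) letter matches in the promoters of the 10 mitotic kinesins. The x axis is the distance in bases from the RefSeq start site (line at 0), and each grey bar is the searched window. A CHR match is present in all 10 rows and a CCAAT match in 9, with none in KIF2C.

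The libraries held 68022689 to 87178097 counts assigned to genes. Every count in control replicate 1 was even (0 odd values), which was not the case in the other 3 libraries, so its depth may be overstated. With its counts halved, edgeR called 0 of the 10 kinesins lower, against 0.631% of genes. Of the melanocyte lineage markers, SOX10 had 703.8 to 1149.0 CPM (counts scaled to a common library size, with TMM factors) and ERBB3 303.6 to 432.4, while the highest level of the pigment genes was 0.208 for TYR, 0.279 for DCT, 2.07 for PMEL and 2.34 for MLANA. MITF, the lineage's main transcription factor, had 42.2 and 22.8 CPM in the controls against 12.3 and 23.4 in resistant cells. The summed level was 0.727 to 1.51 CPM for 4 leukocyte markers, 2.30 to 3.47 for 3 endothelial, 10.4 to 14.9 for 5 fibroblast and 49.2 to 89.5 for 4 keratinocyte markers. The last sum was nearly all KRT10, and no marker was at 0 in all 4 libraries.

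All 10 mitotic kinesins had lower mean levels in resistant than in control cells, by 1.34-fold for KIF18A to 3.53-fold for KIF20A, with a median log2 fold change of -0.89. None of the 10 passed the test over all genes in either direction (quasi-likelihood F test of edgeR, p adjusted by Benjamini-Hochberg under 0.05). In this test 0.513% of 24961 genes were called lower and 0.577% higher. Without adjustment 8 of the 10 had a p under 0.05 with a negative sign, against 7.32% of all genes tested (6.14% had one with a positive sign). A negative sign alone was found in 49.5% of genes. Both resistant libraries lay below both controls in 9 of 10 members, against 22.2% of genes, KIF18A being the exception. DESeq2 called 4 members lower, namely KIF14, KIF18B, KIF23 and KIFC1, against 2.69% of 23622 genes, and none higher, against 2.51%. The median over all genes tested was 0.01. In bulk RNA, fewer cells in mitosis and less kinesin RNA per cell cannot be told apart.

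The 2 libraries of a group also stood apart from each other. Control replicate 1 had the highest level of all 10 members, and resistant replicate 1 the lowest of 9, the exception being KIF20B. The median log2 ratio over the members was 0.58 for control replicate 1 over control replicate 2 and -0.65 for resistant replicate 1 over resistant replicate 2. Between the closest libraries of the 2 groups, resistant replicate 2 over control replicate 2, it was -0.35, with 9 of 10 ratios negative. For the most distant pair, resistant replicate 1 over control replicate 1, it was -1.45. The matching medians over all genes tested lay between -0.01 and 0.02. The summed level of the 10 members was 827.4 and 530.3 CPM in the controls, against 291.0 and 440.6 CPM in resistant cells.

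**Figure D2:**
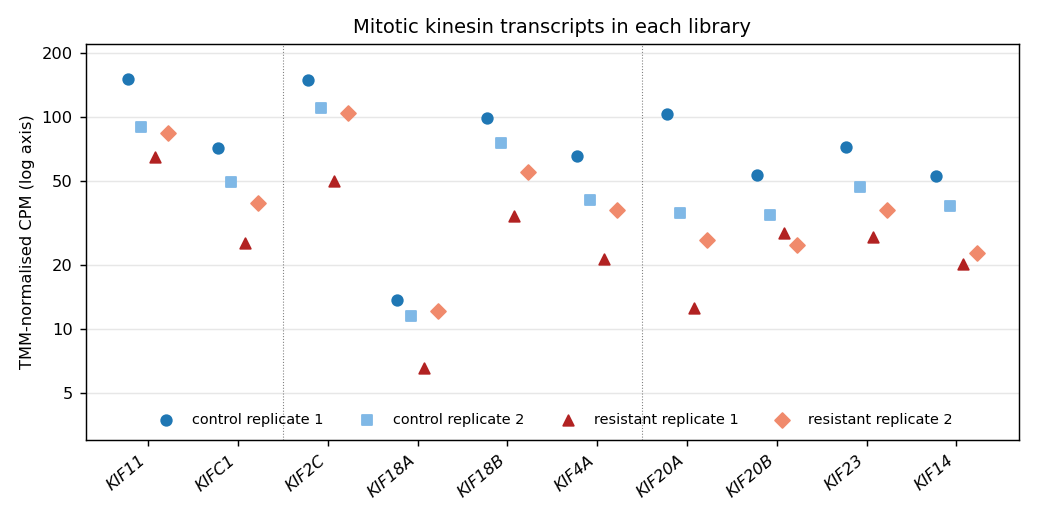
Level of each mitotic kinesin in each library, in TMM-normalised CPM on a log axis. Points are single libraries (2 controls in blue, 2 resistant in red), and dotted lines separate spindle pole motors, chromosome and microtubule end motors, and division motors. Control replicate 1 is the highest point in all 10 genes, and resistant replicate 2 lies close to control replicate 2 for KIF2C and KIF18A.

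KIF11 and KIFC1 act on the spindle poles. KIF11 (ENSG00000138160.7, chromosome 10, 92574105 to 92655395, GRCh38) encodes the motor that slides antiparallel microtubules and pushes the poles apart, and is the target of anti-mitotic inhibitors. It had 149.8 and 89.9 CPM in the controls and 64.8 and 83.5 CPM in the resistant libraries. The groups did not overlap, but control replicate 2 and resistant replicate 2 were close. Its log2 fold change was -0.69 ± 0.26 (SE, edgeR adjusted p = 0.299), and it was -0.28 without control replicate 1. KIFC1 (ENSG00000237649.8, chromosome 6, 33391823 to 33409896) encodes a motor that walks to microtubule minus ends and gathers extra centrosomes in tumour cells. It had 71.6 and 49.4 CPM in the controls and 25.5 and 39.1 CPM in the resistant libraries, again without overlap. The log2 fold change was -0.90 ± 0.26 (edgeR adjusted p = 0.174; DESeq2 adjusted p = 0.0327). Of its exonic bases 14% overlap the pseudogene RPL12P1 on the opposite strand, the largest such share among the 10 members.

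KIF2C, KIF18A, KIF18B and KIF4A work on chromosomes and microtubule ends. KIF2C (ENSG00000142945.13, chromosome 1, 44739818 to 44767767) encodes a depolymerase that removes wrong attachments at centromeres. It had 148.4 and 109.9 CPM in the controls and 49.9 and 104.5 CPM in the resistant libraries. Resistant replicate 2 thus stood just under control replicate 2, and the difference rested on resistant replicate 1, with a log2 fold change of -0.74 ± 0.33 (adjusted p by edgeR = 0.389) that was -0.30 without that library. KIF18A (ENSG00000121621.7, chromosome 11, 28020619 to 28108156) encodes the motor that damps chromosome movements at the metaphase plate. It had 13.7 and 11.5 CPM in the controls and 6.58 and 12.2 CPM in the resistant libraries. Here the groups overlapped, and the log2 fold change of -0.42 ± 0.31 (adjusted p by edgeR = 0.639) became -0.04 without resistant replicate 1.

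KIF18B (ENSG00000186185.14, chromosome 17, 44924709 to 44947773), a relative of KIF18A, shortens astral microtubules. It had 98.3 and 74.9 CPM in the controls and 34.2 and 54.7 CPM in the resistant libraries. The groups stood apart, with a log2 fold change of -0.96 ± 0.25 (adjusted p by edgeR = 0.137; DESeq2 adjusted p = 0.0147). KIF4A (ENSG00000090889.12, chromosome X, 70290104 to 70420886) binds chromosome arms and, with PRC1, sets the length of midzone microtubules. It had 65.0 and 40.5 CPM in the controls and 21.4 and 36.3 CPM in the resistant libraries. The log2 fold change was -0.87 ± 0.31 (edgeR adjusted p = 0.266), and -0.49 without control replicate 1. KIF4B, its intronless copy on chromosome 5, had 20 and 14 counts in the controls, against 2 and 6 in resistant cells, and reads that fit both copies were left out of both by the counting program's default.

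KIF20A, KIF20B, KIF23 and KIF14 act at the midzone in the last step of division. KIF20A (ENSG00000112984.12, chromosome 5, 138178719 to 138187723) carries the chromosomal passenger complex, the AURKB kinase with its partners, to the midzone. It had 102.7 and 35.3 CPM in the controls and 12.6 and 26.4 CPM in the resistant libraries. By ratio, no other member differed as much between its group means or between its controls, with means of 69.0 ± 47.6 and 19.5 ± 9.76 CPM (SD, n = 2). The log2 fold change was -1.82 ± 0.51 (edgeR adjusted p = 0.157; DESeq2 adjusted p = 0.329). Leaving out resistant replicate 2 gave -2.45, and leaving out control replicate 1 gave -0.85. KIF20B (ENSG00000138182.15, chromosome 10, 89701590 to 89774939), a motor of abscission, had 53.2 and 34.6 CPM in the controls and 28.5 and 24.9 CPM in the resistant libraries. Its log2 fold change was -0.71 ± 0.23 (edgeR adjusted p = 0.227).

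KIF23 (ENSG00000137807.16, chromosome 15, 69414246 to 69448427) forms the centralspindlin complex with RACGAP1. It had 72.4 and 46.5 CPM in the controls and 27.1 and 36.2 CPM in the resistant libraries. The log2 fold change was -0.91 ± 0.25 (edgeR adjusted p = 0.155, DESeq2 adjusted p = 0.0246). Of the exonic bases of KIF23, 3.5% overlap an antisense gene, KIF23-AS1. The share overlapping genes on the opposite strand was 5.3% for KIF20A, 4.8% for KIF2C and 1.7% for KIF4A. Reads on such shared bases were left out of all genes sharing them by the counting program's default. KIF14 (ENSG00000118193.12, chromosome 1, 200551497 to 200620751) binds PRC1 and citron kinase in the midbody. It had 52.4 and 37.8 CPM in the controls and 20.3 and 22.9 CPM in the resistant libraries. The resistant libraries agreed closely and both stood well under the controls. With a log2 fold change of -1.06 ± 0.21, KIF14 had the lowest p of the 10 members, yet it missed the threshold over all genes (edgeR adjusted p = 0.0673; DESeq2 adjusted p = 0.00123).

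Leaving out 1 library kept all 10 fold changes negative in each of the 4 fits. The median over the members was -0.53 without control replicate 1, -0.64 without resistant replicate 1, -1.14 without control replicate 2 and -1.19 without resistant replicate 2. The calls did not keep pace with these sizes. Without control replicate 2, edgeR called 8 members lower (all but KIF18A and KIF2C), against 3.84% of 26580 genes, and it called none of the 10 without control replicate 1 (1.49% of genes lower), resistant replicate 1 (0.287%) or resistant replicate 2 (0.0333%). In both fits that left out a control, the spread within groups came from the resistant libraries alone. The remaining control is assumed to vary like them. The fit without control replicate 2 (median -1.14) kept control replicate 1, the library with the highest level of all 10 members. Without the filter on low counts 9 of 10 were called lower (2.14% of genes lower). With the replicate number as a block the count was 0 of 10 (0.124%), as in the fit of all libraries without it.

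**Figure D3:**
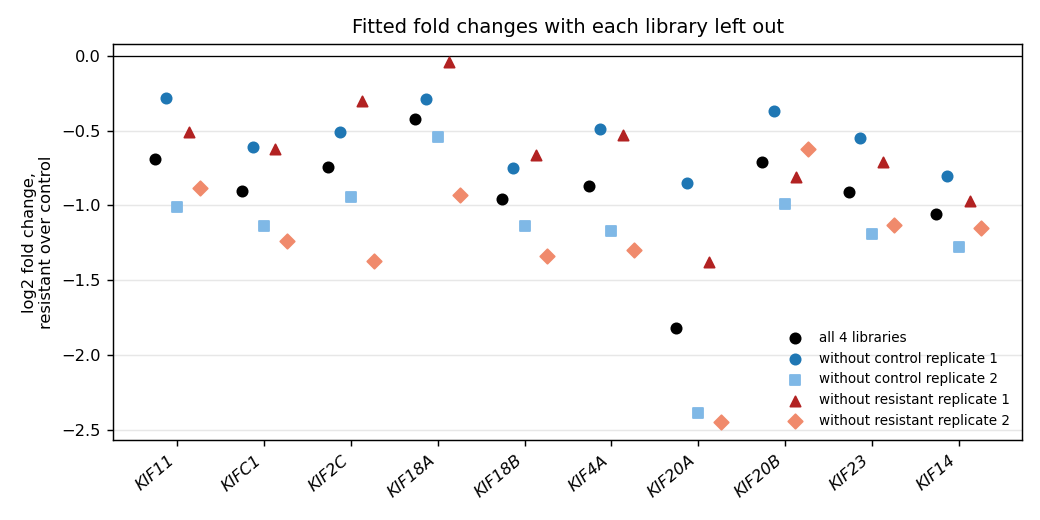
Fitted log2 fold change, resistant over control, of each mitotic kinesin with all 4 libraries (black) and with each library left out (coloured by the library removed). All points lie below 0. KIF20A spans the widest range, -2.45 to -0.85, and KIF18A comes nearest to 0, at -0.04 without resistant replicate 1.

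Levels of different genes were compared per kilobase of exon. KIF2C was the most abundant member in each of the 4 libraries (mean 28.3 CPM per kilobase over the 4), KIF11 came next in each (18.2) and KIF18A last in each (2.43). KIFC1 (15.3) exceeded KIF18B (13.9) in each library, but by less than either gene varied between the libraries of a group. KIF20A moved most in this order. It had rank 3 in control replicate 1, rank 5 in control replicate 2, rank 8 in resistant replicate 1 and rank 6 in resistant replicate 2. KIF20B (5.14) and KIF14 (4.57) stood in either order depending on the library.

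Other kinesins with a described mitotic role also had negative log2 fold changes, from -0.12 to -2.07 in the 6 tested. Of these 6 genes 1 was past the threshold, against 0.513% of all genes called lower. KIF15, a motor that can hold the spindle open alongside KIF11, was that gene and fell 2.90-fold. It had 27.2 and 19.3 CPM in the controls and 8.05 and 7.99 CPM in the resistant libraries (log2 fold change -1.53 ± 0.23, edgeR adjusted p = 0.0355). KIF15 lost its call without resistant replicate 1 (edgeR adjusted p = 0.0725), without resistant replicate 2 (0.186) and with the replicate block (0.0657). CENPE, the kinetochore motor that carries chromosomes to the plate, had 49.0 and 42.1 CPM in the controls and 16.9 and 23.6 CPM in the resistant libraries (log2 fold change -1.17 ± 0.22, edgeR adjusted p = 0.0569; DESeq2 adjusted p = 3.33e-04). The fitted log2 change was -0.45 for the centriole kinesin KIF24, -0.28 for the chromokinesin KIF22 and -0.12 for KIF2A, a depolymerase also used outside mitosis. Their edgeR adjusted p-values were 0.433, 0.626 and 0.827. KIF4B had -2.07 on few counts, and KIF2B, with 0 and 2 counts in the controls against 2 and 2 in resistant cells, was too low to test.

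The list called transport kinesins here holds kinesins outside the mitotic lists, whether or not each carries cargo, with the light chains. These genes did not share the negative sign of the mitotic kinesins. Of 29 tested, 13 had a negative and 16 a positive log2 fold change, with a median of 0.01, and their summed level was 1405.4 and 1376.0 CPM in the controls and 1398.1 and 1563.8 CPM in the resistant libraries. edgeR called none of the 29, and DESeq2 called 1 higher, against 2.51% of all genes. That 1 was KIF1A, a neuronal cargo motor, with 44.5 and 44.2 CPM in the controls and 76.1 and 89.7 CPM in the resistant libraries (log2 fold change 0.90 ± 0.17, edgeR adjusted p = 0.0569). It was also the 1 member of that list with an unadjusted p under 0.05. Over all genes 6.14% had one with a positive sign. For KIF21B, which limits microtubule growth, the fitted log2 change was 0.35 (edgeR adjusted p = 0.441).

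**Figure D4:**
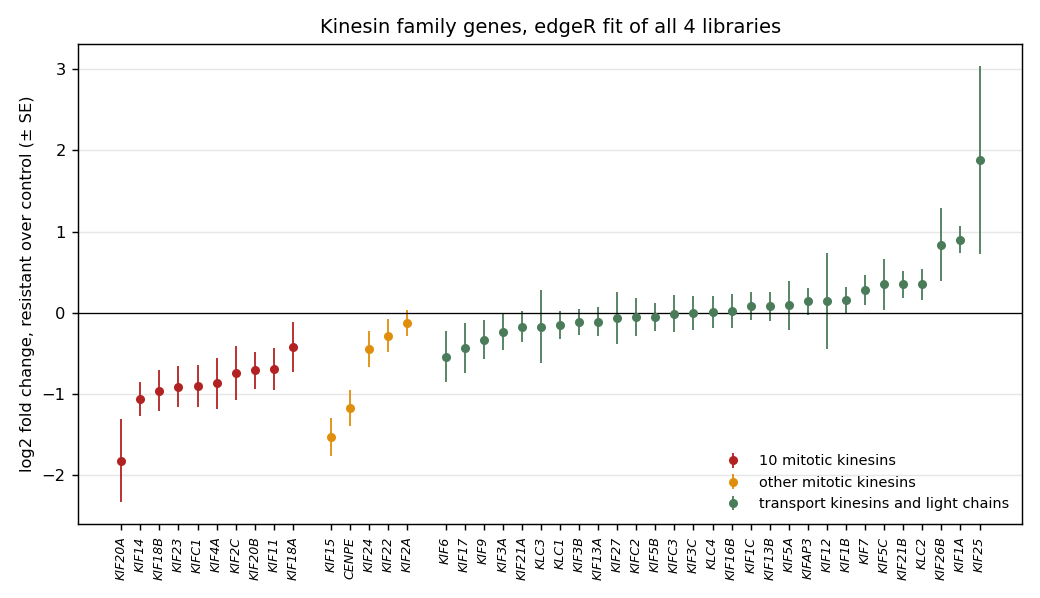
Log2 fold change, resistant over control, with its SE, for the tested kinesin genes in 3 groups, sorted within each (KIF4B is left out for its few counts). The 10 mitotic kinesins lie between -1.82 and -0.42, while the transport kinesins and light chains spread on both sides of 0 with a median of 0.01.

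Most binding partners and kinases of the mitotic kinesins had the same sign as the motors. Of 24 partners, 23 had a negative log2 fold change, with a median of -0.77, and 1 was called lower by edgeR, 15 had an unadjusted p under 0.05 and DESeq2 called 6 lower. Over all genes the shares for these 3 counts were 0.513%, 7.32% and 2.69%, which also stand as the background for the lists that follow. The called gene was CIT, which encodes citron kinase, the partner of KIF14 in the midbody. CIT fell from 189.0 and 190.0 CPM to 96.2 and 98.4 CPM, a log2 fold change of -0.96 ± 0.16 (adjusted p by edgeR = 0.0428), with little spread in either group. CIT lost its call without resistant replicate 1 (edgeR adjusted p = 0.159), without resistant replicate 2 (0.217) and with the replicate block (0.0945). The fitted log2 change was -1.43 for PLK1, the kinase that docks on KIF20A, and -0.97 for AURKB (edgeR adjusted p = 0.106 and 0.199). RACGAP1, the partner of KIF23, had -0.76, and PRC1, the partner of KIF4A, -0.84 (0.219 and 0.294). The level of PRC1 was low, at 2.34 to 5.65 CPM, against 49.6 to 119.9 CPM for RACGAP1. TPX2, which binds KIF11 at the poles, had -0.78 (0.334). These 5 were picked for their ties to the members after their values were seen. Some other partners, also named after their values were seen, lay nearer 0. NEK6 was the 1 partner without a negative value, at 0.00. CLASP1 and NEK9 each had -0.07, MAPRE1 -0.09, CKAP5 -0.14 and NEK7 -0.28.

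Lists of other cell cycle steps were read from the same fit. Among 17 mitotic entry genes 16 were negative, with a median of -0.88, 0 edgeR calls, 11 with an unadjusted p under 0.05 and 7 lower by DESeq2. In that list the lowest p-values belonged to WEE1, a kinase that delays mitosis, at -0.88, and the proliferation marker MKI67 at -1.20 (edgeR adjusted p = 0.0605 and 0.0772). Among 28 kinetochore and checkpoint genes 26 were negative, with a median of -0.73, 0 edgeR calls, 16 with an unadjusted p under 0.05 and 7 lower by DESeq2, CENPF (-1.01) and NDC80 (-1.21), both kinetochore components, having the lowest p-values (edgeR adjusted p = 0.0909 and 0.129). Among 21 dynein and tubulin genes 19 were negative, with a median of -0.37, 0 edgeR calls, 8 with an unadjusted p under 0.05 and 1 lower by DESeq2. The beta-tubulin genes TUBB6 (-0.88) and TUBB (-0.77) had the lowest p-values there (edgeR adjusted p = 0.156 and 0.196).

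S phase genes had a median of -0.34 with 21 of 24 negative, 0 edgeR calls, 4 with an unadjusted p under 0.05 and 1 lower by DESeq2. Their summed level did not separate the groups, at 2589.5 and 1772.0 CPM in the controls and 1947.8 and 1395.7 CPM in the resistant libraries. The nucleotide reductase gene RRM2 (-0.97) and the replication licensing gene CDT1 (-0.66) had the lowest p-values (edgeR adjusted p = 0.135 and 0.211). The list called late-cycle transcription factors holds MuvB core, NF-Y, E2F and RB-like genes (such as E2F4, RBL1 and RBL2) beside FOXM1 and MYBL2. Its median therefore does not describe activators of the late cell cycle alone. Among its 16 genes 10 were negative, with a median of -0.11 and 0 edgeR calls. In this list 2 genes had an unadjusted p under 0.05, and DESeq2 called 1 lower. Of these, FOXM1, which activates genes of the G2 phase and mitosis, had 121.5 and 77.9 CPM in the controls and 38.2 and 60.9 CPM in the resistant libraries (log2 fold change -1.01 ± 0.29, edgeR adjusted p = 0.160; DESeq2 adjusted p = 0.0166). LIN9, a MuvB core subunit, had 19.1 and 17.5 CPM in the controls and 12.7 and 12.8 CPM in the resistant libraries (-0.52 ± 0.19, edgeR adjusted p = 0.282). The list medians moved with the library left out. Without control replicate 1 they were -0.59 for mitotic entry, -0.33 for kinetochore and -0.40 for partner genes. For dynein and tubulin genes the median was then -0.20, for S phase genes -0.02 and for transcription factors -0.11. Without control replicate 2 the medians, in that order, were -1.05, -1.04, -0.99, -0.40, -0.58 and -0.13. Without resistant replicate 1 they were -0.79, -0.61, -0.51, -0.29, -0.62 and -0.12. The S phase median was then close to that of the 10 kinesins (-0.64). Without resistant replicate 2 they were -1.06, -0.85, -0.99, -0.42, -0.11 and -0.11, against -1.19 for the 10 kinesins. The differences between these lists were not tested.

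**Figure D5:**
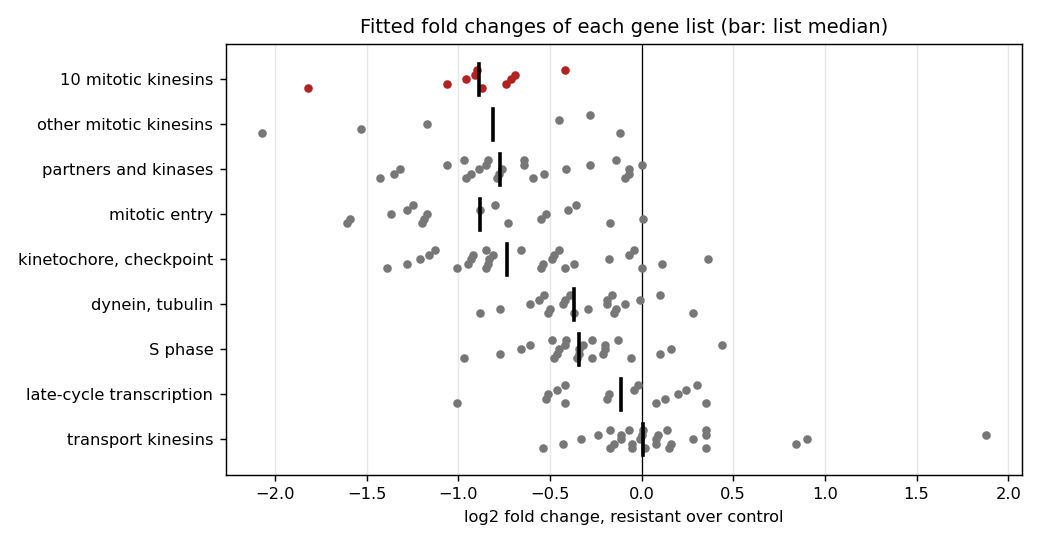
Log2 fold change, resistant over control, of the tested genes of each list (points, stacked to avoid overlap) with the list median (black bar). In the fit of all 4 libraries the median is -0.89 for the 10 mitotic kinesins (red), -0.34 for the S phase genes and 0.01 for the transport kinesins.

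The members lie on 7 autosomes and the X chromosome, and the median of the genes around them was near 0. Protein-coding genes expressed within 5 Mb on each side, 17 to 142 per member, had median log2 fold changes from -0.06 around KIF20B to 0.10 around KIF18A. In these stretches at most 6 neighbours had a fold change at or below that of the kinesin (6 of 134 around KIFC1). The count was 2 of 17 around KIF18A and 4 of 52 around each of KIF11 and KIF14. It was 3 of 40 around KIF20B and 0 of 97 around KIF20A. For KIF15, on chromosome 3 (44761721 to 44873376), 83 of 87 neighbours were negative with a median of -0.64, and 2 had a fold change at or below that of KIF15. Over the first 100 Mb of that chromosome 325 of 341 genes were negative. The part of this stretch in the KIF15 result was not tested.

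The level pattern of the members over the 4 libraries was shared closely by some of them and not by others. Each gene's log2 CPM was centred on its own mean and compared with the mean pattern of the 10 members, which was 0.77 and 0.14 in control and -0.75 and -0.16 in resistant cells. Among 10902 protein-coding genes with at least 5 CPM, KIFC1 ranked 1 in nearness to that mean, KIF23 ranked 8 and KIF4A ranked 11. KIF20A, with its wider swings, ranked 5574. The 6 nearest genes outside the members were PDLIM1, REXO5, DEPDC1B, OR51B5, CLEC11A and HYLS1, at distances of 0.075 to 0.119. DEPDC1B, for example, had 37.9 and 23.9 CPM in the controls and 13.3 and 21.3 CPM in the resistant libraries. None of these 6 passed the test, their edgeR adjusted p-values lying between 0.143 and 0.273. With 4 libraries such a likeness is a description only, and the members themselves set the pattern.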

How the data were processed

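PolyA-selected, strand-specific, paired-end libraries of A375 cells, 2 control and 2 resistant, were sequenced, per the labels' protocols. The authors deposited raw gene counts made with featureCounts 2.0.0 on duplicate-marked alignments against GENCODE 42, per the file headers, which show no strand, pair or multi-mapping option. By that program's defaults mates were counted singly and without regard to strand, and reads on several genes or places were left out. The submitters' processing notes name STAR, DESeq2 and GRCh38. The authors' deposited table of log2 fold changes names no comparison and entered no test.

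Symbols matched 62625 of 62649 identifiers. Genes kept by filterByExpr (24961) were scaled with TMM and tested with edgeR 4.0.16 (R 4.3.3; limma 3.58.1) by the quasi-likelihood F test, two-sided, with group as the sole term and Benjamini-Hochberg adjustment over all genes. The SE of a log2 fold change is its size over the root of F. The biological coefficient of variation was 25.5%. With 2 libraries per group, and member counts of 468 to 10720, spread between libraries limits precision more than counting. DESeq2 1.42.0 was an alternative. Others were RLE and upper-quartile factors, no filter, control replicate 1 halved, a replicate block and each library left out. The edgeR step was tested on simulated data.

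The members and all lists were chosen with earlier results of these data known. The text names the 10 members, the other mitotic kinesins, called genes of each other list or else 2 with the lowest p and at least 5 CPM in the direction of its median, and the 6 nearest patterns. Other genes named are identified as such or check the libraries. The motif letters and the 5 Mb neighbourhoods were chosen after the values were seen. Promoter sequences are from RefSeq (GRCh38.p14), where each of the 10 members had 1 entry, and gene types are from GENCODE release 29. Samples treated with sorafenib or pioglitazone and glycan measurements were not analysed here.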

Additional observations from a re-analysis of the deposited data

How the results depend on the processing

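The 10 kinesins kept a negative sign in each setting, with a median log2 fold change of -0.89 with RLE factors, -0.85 with upper-quartile factors, -0.87 with DESeq2, -0.86 without the filter, -0.88 with control replicate 1 halved and -0.53 to -1.19 with 1 library left out. DESeq2 called 4 of the kinesins, 2 other mitotic kinesins, 6 partners, 1 dynein or tubulin gene, 1 late-cycle transcription factor, 7 mitotic entry, 7 kinetochore and 1 S phase genes lower and 1 transport kinesin higher, with 636 genes lower and 593 higher over all. Without the low count filter these counts were 9, 2, 12, 2, 1, 11, 12, 3 and 1, with 961 and 905 over all. In that fit no gene-specific spread was kept, since edgeR's prior degrees of freedom were infinite. With control replicate 1 halved, 2 other mitotic kinesins were called lower, and with upper-quartile factors 1 transport kinesin was called higher. The causes of the differences between tools were not tested. With 1 library left out, calls ranged from 0 to 8 for the kinesins, 0 to 2 for the other mitotic kinesins, 0 to 13 for partners, 0 to 4 for dynein and tubulin, 0 to 1 for transcription factors, 0 to 11 for mitotic entry, 0 to 16 for kinetochore and 0 to 4 for S phase genes, all lower, and 0 to 1 for transport kinesins, higher. Over all genes they ranged from 9 to 1020 lower and from 7 to 1146 higher, the lowest without resistant replicate 2 and the highest without control replicate 2.

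Replicate numbers are shared by the groups but did not pair the libraries: the deviations of same-numbered libraries correlated at -0.00571 across 10089 genes. With the replicate block the kinesins had 0 calls and a median of -0.88, the other mitotic kinesins and the partners 0 calls each, and all genes 31 lower and 33 higher. By CPM without length, 5 of the 10 kinesins changed rank. In the promoters, ending the window at the start site left 6 members with a CHR match, 9 with CCAAT and 6 with both.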

Other observations

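The authors' deposited table, which gives a symbol and a log fold change for 1533 genes without naming the comparison, lists 6 of the 10 mitotic kinesins, all with a negative value. In the authors' deposited table KIF14 has -1.09, KIF18B -0.96, KIF23 -0.95, KIFC1 -0.91, KIF4A -0.88 and KIF20B -0.72. KIF11, KIF18A, KIF20A and KIF2C are not among its symbols. CENPE (-1.17) and KIF15 (-1.56) are listed there too. Over 1391 symbols shared with the counts, the values of the authors' deposited table differed from the DESeq2 log2 fold changes, resistant over control, by a median of 0.034, so they are on the log2 scale. They come from the same kind of comparison on these libraries, as far as the values show, and are no independent measurement.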
